A study of Mus musculus with 15 samples.

Results

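The oligodendrocyte lineage was followed through 9 genes, taken by their symbols in the deposited gene tables: the transcription factors Olig1, Olig2 and Sox10, the surface proteins Pdgfra, Cspg4 and Gpr17, and the myelin genes Cnp, Mbp and Mog. All 9 were among the 21566 genes of the sorted table, and Mbp and Cnp were the 2 that were also among the 10781 genes of the time series table. Pitx3-GFP mice carry a green fluorescent protein (GFP) reporter of Pitx3, a transcription factor gene of midbrain dopamine neurons, and cells of their ventral midbrain were separated by fluorescence-activated cell sorting (FACS) before RNA extraction. Embryonic day 14 (E14) gave 3 GFP+ and 3 GFP− libraries, and a separate time series sampled GFP+ cells 3 times at each of E14, E16 (embryonic day 16) and birth (P0), 15 libraries in 5 groups. Every group carried the same reporter genotype. The labels call the cells of all groups dopamine neurons, the GFP− fraction included, although that fraction is what the reporter left unlabelled. Midbrains of 3 litters were used with 3 replicates per group. Whether replicates were separate litters is not labelled, so p-values measure the spread between these libraries, part of which may be technical.

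Oligodendrocytes wrap axons of the central nervous system in myelin. They arise from ventral neural progenitors that express Olig2, pass through a dividing precursor stage marked by the growth factor receptor Pdgfra and the proteoglycan Cspg4 (NG2), and then through a short committed stage marked by Gpr17 before they make the myelin proteins Cnp, Mbp and Mog. In the mouse midbrain, precursors appear before birth and myelin forms mainly after it. Several of these genes are not restricted to the lineage: Cspg4 also marks pericytes, Pdgfra also marks fibroblasts of the meninges, Olig2 also marks neural progenitors, and the Mbp locus also makes golli transcripts in neurons and immune cells.

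The sorted libraries held 17369191 to 22374153 reads and the time series libraries 17910017 to 33386535. Values are normalized reads, that is reads divided by 1 scaling factor per library, and they are comparable between libraries of a table and, between genes, only after division by exon length. All 10 tested marker genes of midbrain dopamine neurons were higher in GFP+ cells (median log2 fold change 4.19). All 12 radial glia and progenitor genes and all 10 microglial genes were lower, with medians of -3.85 and -3.28. So were 6 of 9 astrocyte genes (1 higher, Slc1a2, and a median of -2.94) and 9 of 10 endothelial genes (0 higher, and a median of -1.31). Over all genes tested, 18% were lower and 12.7% higher. GFP+ library 2 stood apart from the other GFP+ libraries in the genes described here: it was the highest of the 3 GFP+ libraries for 7 of the 9 genes (77.8%), against 32.4% of all 18260 genes tested. Results that rest on it are given with and without it. In such bulk libraries, fewer cells of a type and less RNA per cell cannot be told apart.

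Olig1, Olig2 and Sox10, the transcription factors that establish and maintain the lineage, were lower in GFP+ cells at E14, Olig1 and Olig2 by the largest log2 fold changes of the 9 genes. Olig2, the basic helix-loop-helix factor that specifies the lineage (chromosome 16, 91225457 to 91228677), stood at 708, 681 and 621 normalized reads in the GFP− libraries and 34.7, 26.8 and 19.1 in the GFP+ libraries. The lowest GFP− library was thus far above the highest GFP+ library. The means were 670 ± 44.7 and 26.9 ± 7.78 (SD, n = 3 per group). The log2 fold change was -4.63 (SE 0.20, limma adjusted p = 1.82e-08), and the GFP+ mean was 4.01% of the GFP− mean. Olig1, its neighbour on the same chromosome (91269772 to 91271933) and a related factor of differentiation, read 387, 444 and 452 in GFP− and 15.6, 25.0 and 13.8 in GFP+ libraries. Its log2 fold change was -4.53 (SE 0.22, limma adjusted p = 4.46e-08), with 4.24% of the GFP− mean left in GFP+ cells. The groups did not overlap for either gene. Sox10, an HMG box factor that switches on myelin genes (chromosome 15, 79154908 to 79165240, minus strand), read 58.1, 119 and 86.6 in GFP− and 7.18, 6.48 and 9.57 in GFP+ libraries. The GFP− libraries of Sox10 spread more than those of Olig1 or Olig2, but the groups did not overlap. Its log2 fold change was -3.30 (SE 0.32, limma adjusted p = 1.18e-05), and its GFP+ values rest on 6 to 9 reads per library.

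The surface proteins of the precursor and committed stages were lower too, with Pdgfra furthest apart. Pdgfra, the receptor through which PDGF-A drives precursor division (chromosome 5, 75152292 to 75198215), read 1484, 1715 and 1464 in GFP− and 95.7, 148 and 78.7 in GFP+ libraries. Its log2 fold change was -3.89 (SE 0.19, limma adjusted p = 4.42e-08), and the GFP+ mean of 107 ± 36.1 was 6.91% of the GFP− mean of 1554 ± 139 (SD, n = 3 per group). Cspg4, the proteoglycan NG2 on precursors and pericytes (chromosome 9, 56865033 to 56899870), read 127, 127 and 122 in GFP− libraries, the tightest GFP− group relative to its mean, and 15.6, 22.2 and 13.8 in GFP+ libraries. Cspg4 gave a log2 fold change of -2.82 (SE 0.24, limma adjusted p = 3.19e-06). Gpr17, a receptor of committed precursors that holds back maturation (chromosome 18, 31942997 to 31949636, minus strand), read 277, 393 and 240 in GFP− and 33.5, 73.1 and 31.9 in GFP+ libraries. The groups of all 3 genes stayed apart, with GFP+ library 2 the highest of its group each time. Gpr17 gave a log2 fold change of -2.76 (SE 0.30, limma adjusted p = 2.62e-05), which became -3.14 without GFP+ library 2.

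The 3 myelin genes behaved differently from one another. Cnp, an enzyme of non-compact myelin that is made before the other myelin proteins (chromosome 11, 100574904 to 100591729), read 316, 319 and 342 in GFP− and 133, 212 and 148 in GFP+ libraries. The groups did not overlap, and GFP+ cells kept 50.4% of the GFP− mean (326 ± 13.9 against 164 ± 42.0; SD, n = 3 per group). Cnp's log2 fold change was -1.01 (SE 0.17, limma adjusted p = 0.000694). Mbp, the protein that compacts the myelin sheath (chromosome 18, 82475146 to 82585637), read 485, 525 and 534 in GFP− and 473, 828 and 487 in GFP+ libraries. Here GFP+ library 1 lay just below the GFP− range, library 3 within it and library 2 well above it. The log2 fold change of Mbp was 0.16 (SE 0.18, 95% interval -0.24 to 0.56, limma adjusted p = 0.546), and without GFP+ library 2 it was -0.10 (limma adjusted p = 0.552). Values are per gene, so golli and myelin transcripts of Mbp cannot be told apart. Mog, a surface glycoprotein of finished myelin (chromosome 17, 37010743 to 37023398, minus strand), had few reads, at 23.7, 21.0 and 24.5 in GFP− and 20.3, 35.2 and 14.9 in GFP+ libraries. The 2 groups of Mog overlapped, from 14 to 38 reads per library, and its log2 fold change was -0.06 (SE 0.34, 95% interval -0.81 to 0.70, limma adjusted p = 0.919). A true difference anywhere within this interval is compatible with the values of Mog.

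**Figure D1:**
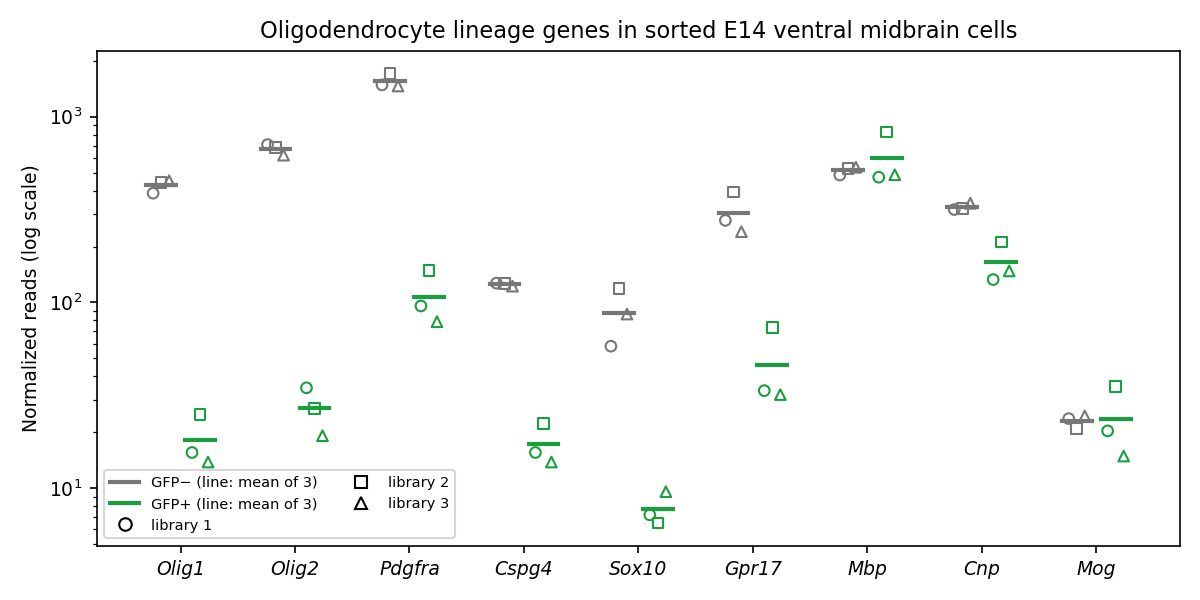
Normalized reads of the 9 genes in each sorted library at E14 on a log axis, with 3 GFP− and 3 GFP+ libraries per gene as points and the group mean as a line. The GFP+ points lie below all GFP− points for Olig1, Olig2, Sox10, Pdgfra, Cspg4, Gpr17 and Cnp, and the groups overlap for Mbp and Mog.

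In all, 7 of the 9 genes were lower in GFP+ cells and 0 higher, against 18% of all 18260 genes tested that were lower and 12.7% that were higher (30.7% in either direction). Their median log2 fold change was -2.82, against 0.02 over all genes. The groups did not overlap for the 7 lower genes, and over all genes they did not overlap in the lower direction for 23.5%. The plot of normalized reads by sorted library shows this split between the 7 genes and Mbp and Mog. Without GFP+ library 2 the counts were again 7 lower and 0 higher, with a median of -3.14. In the authors' deposited table the log2 fold changes ran from -4.65 for Olig2 to -0.98 for Cnp among the same 7 genes, and Mbp and Mog stood at 0.21 and 0.04 with adjusted p of 0.471 and 0.968. Olig1, Pdgfra, Gpr17 and Cnp share 157, 456, 188 and 154 exon bases with a gene on the opposite strand (Gm15966, Gm42802, Lims2 and Dnajc7), which is 7.26%, 4.55%, 3.62% and 4.23% of their exon length, and reads there cannot be told apart because strand use in counting is not given in the sources used here.

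Divided by exon length, the order of the genes differed between the fractions. In GFP− cells Olig2 led at 265 ± 17.7 normalized reads per kb of exon, followed by Olig1 at 198 ± 16.2 and Pdgfra at 155 ± 13.9 (SD, n = 3). Cnp came next at 89.6 ± 3.83, then Mbp at 60.8 ± 3.06 and Gpr17 at 58.4 ± 15.3, whose libraries overlapped each other. Sox10 at 28.8 ± 9.98, Mog at 13.5 ± 1.07 and Cspg4 at 10.5 ± 0.219 were the lowest. In GFP+ cells Mbp led at 70.4 ± 23.8 normalized reads per kb, followed by Cnp at 45.1 ± 11.5 and Mog at 13.8 ± 6.16. The place of Mog rests on GFP+ library 2, where it stood at 20.6. In GFP+ libraries 1 and 3 Mog stood at 11.9 and 8.74 and Olig2 at 13.7 and 7.57. Mbp, at 55.8 and 57.5, and Cnp, at 36.5 and 40.6, stayed above both there. Pdgfra at 10.7 ± 3.60, Olig2 at 10.6 ± 3.08, Gpr17 at 8.89 ± 4.49 and Olig1 at 8.38 ± 2.78 lay within each other's spread and overlapped Mog's. Sox10 at 2.54 ± 0.532 and Cspg4 at 1.44 ± 0.371 were the lowest in GFP+ cells. In GFP− libraries Olig2, Olig1 and Pdgfra thus stood above all 3 myelin genes per kb, and Sox10, Cspg4 and Gpr17 did not. In GFP+ libraries none of these 6 genes stood above Mbp or Cnp. The exon length used counts every annotated exon of a gene, 8.47 kb for Mbp and 2.53 kb for Olig2. A single transcript can be shorter, so the order per kb depends on this choice.

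The bases just before the starts of Pdgfra, Cnp and Mog are shown because these genes stand for the 3 outcomes of the sort: far lower, about 2-fold lower and overlapping. Each line gives the bases before the RefSeq start and outside any GENCODE exon, 5′ to 3′ on the gene's strand, from the RefSeq promoter table (GRCm38.p6). Capitals mark a match on either strand to the motifs searched, which were the E-box CANNTG bound by Olig and other helix-loop-helix factors, the Sox motifs ACAAAG and ACAATG, and the TATA box TATAAA.
Pdgfra: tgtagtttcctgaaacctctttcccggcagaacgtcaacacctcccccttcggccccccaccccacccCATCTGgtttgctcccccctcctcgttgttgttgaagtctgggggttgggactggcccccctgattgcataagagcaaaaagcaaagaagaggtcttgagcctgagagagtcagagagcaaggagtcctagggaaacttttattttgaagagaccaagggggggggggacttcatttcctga
Cnp: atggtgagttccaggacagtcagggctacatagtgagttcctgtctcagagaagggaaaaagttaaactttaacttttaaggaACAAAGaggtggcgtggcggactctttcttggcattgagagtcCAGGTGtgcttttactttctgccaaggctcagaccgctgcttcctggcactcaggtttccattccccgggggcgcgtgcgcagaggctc
Mog: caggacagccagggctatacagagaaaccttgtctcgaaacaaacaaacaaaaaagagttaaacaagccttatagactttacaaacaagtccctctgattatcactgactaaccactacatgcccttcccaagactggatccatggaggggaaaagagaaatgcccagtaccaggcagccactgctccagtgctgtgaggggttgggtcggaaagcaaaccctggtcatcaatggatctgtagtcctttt
The Pdgfra stretch (chr5:75152001-75152250, plus strand) held 1 E-box, CATCTG, 182 bases before the start. Cnp's stretch (chr11:100574689-100574903, plus strand) held the Sox motif ACAAAG 167 bases and the E-box CAGGTG 124 bases before the start. Mog's (chr17:37023399-37023648, minus strand) held none of the 4 motifs. Of 32851 RefSeq promoters, 66.2% held CANNTG, 16.5% ACAAAG, 10.7% ACAATG and 12.4% TATAAA in their 250 bases before the start. An E-box match is thus a frequent one, and matches to the other motifs are less frequent but not rare. The matches are descriptions of letters and not of bound sites. Olig2 and Cspg4 had entries in the same table, in which Cspg4 held none of the motifs and Olig2 held ACAATG and TATAAA 68 and 8 bases before the RefSeq start, within the first exon of the GENCODE annotation.

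Other genes of the lineage were counted from lists of its stages, to be read against the 18% of all genes that were lower and the 12.7% that were higher. Of 22 tested regulators and markers of precursors, 12 were lower in GFP+ cells and 3 higher (median log2 fold change -1.21). The lower ones included Sox8, a close relative of Sox10, at -4.71 (SE 0.24), and the homeobox factors Nkx6-2 and Nkx2-2 of the ventral progenitor domains at -4.02 (SE 0.30) and -3.98 (SE 0.26). The higher ones were C1ql1, a secreted C1q-like protein, at 1.23 (SE 0.21), the matrix proteoglycan Vcan at 0.58 (SE 0.15) and the transcription factor Sox6 at 0.52 (SE 0.11). Of 11 genes of committed precursors 5 were lower and 0 higher (median -0.35, against 0.02 over all genes). Itpr2, a calcium release channel, Sema5a, a guidance protein, and Gpr37, a receptor, were lower by -1.97 (SE 0.18), -1.57 (SE 0.13) and -1.44 (SE 0.15) on the log2 scale. The other 2, named after their values were seen, were Tns3, an adhesion protein, at -1.12 and Sirt2, a deacetylase, at -0.35. With the number in the column names as a block, the precursor list held 13 lower and 6 higher genes, where 23.6% of all genes were lower and 22.7% higher, and without GFP− library 1 it held 5 higher.

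Of 24 tested myelin and mature oligodendrocyte genes, 10 were lower and 1 was higher (median log2 fold change -0.42). The lower ones included Ermn, a cytoskeletal protein of myelin, at -2.24 (SE 0.27), Anln, which scaffolds septins and is also needed for cell division, at -1.76 (SE 0.19), and Sept4, a septin, at -0.78 (SE 0.14). The higher one was Nfasc, an adhesion protein with a glial and a neuronal form, at 0.25 (SE 0.07). This count moved with single libraries: 6 were lower without GFP− library 2 or GFP− library 3, and 0 were higher without GFP− library 3, GFP+ library 2 or GFP+ library 3. With the block 11 were lower and 2 higher, against the blocked shares over all genes of 23.6% and 22.7%. Mag and Mobp, myelin proteins named here after their values were seen, did not pass the test. Mobp read 93.3, 190 and 78.7 and Mag 39.5, 62.0 and 24.5 in the GFP+ libraries, with library 2 the highest for both.

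Signals and receptors that act on precursors were counted likewise, with 18 of 25 lower and 3 higher (median log2 fold change -1.38), where 18% and 12.7% of all genes were. Hes5, a Notch target, Fgfr3, a fibroblast growth factor receptor, and Hes1, another Notch target, were lower by -4.93 (SE 0.32), -4.74 (SE 0.12) and -3.26 (SE 0.28). Hes1 and Hes5 also belong to the radial glia list. Erbb4, a neuregulin receptor, Cxcr4, a chemokine receptor, and Pdgfc, a PDGF ligand that also binds Pdgfra, were higher by 1.92 (SE 0.12), 1.54 (SE 0.08) and 1.43 (SE 0.21). With the block the counts were 18 lower and 6 higher, and 22.7% of all genes were then higher, so the higher count is near the share of all genes.

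Pericytes share Cspg4 with the lineage, and fibroblasts share Pdgfra. Their counts are to be read against the 18% of all genes that were lower and the 12.7% that were higher. Of 9 tested pericyte and mural genes 8 were lower in GFP+ cells and 0 higher (median log2 fold change -1.83), with Pdgfrb, the PDGF receptor of pericytes, at -4.08 (SE 0.33) and Notch3 at -3.73 (SE 0.14). The summed level of the 11 pericyte genes in the table ran from 1821 to 1994 normalized reads over the GFP− and from 287 to 418 over the GFP+ libraries. Of 9 tested fibroblast and meningeal genes 4 were lower and 1 higher (median -1.10), with the collagen Col3a1 at -1.18 (SE 0.39). The others, named after their values were seen, were Dcn, Foxd1 and Col1a2, lower by -2.13, -2.03 and -1.10, and Twist1, higher by 1.48. A count of 1 higher among 9 is near the share of all genes. The 11 fibroblast and meningeal genes summed to 184 to 330 normalized reads in GFP− and 103 to 155 in GFP+ libraries. The fibroblast counts rest on few reads, with 2 genes lower without GFP+ library 1 or GFP+ library 3 and 0 higher without GFP− library 2 or GFP+ library 3. Lum, a proteoglycan of fibroblasts, was at 0 in all 3 GFP+ libraries. Radial glia and progenitor genes, which share Olig2, summed to 76998 to 91792 normalized reads in GFP− and 7340 to 8963 in GFP+ libraries. The part of these other cells in the levels of Pdgfra, Cspg4 and Olig2 was not tested.

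**Figure D2:**
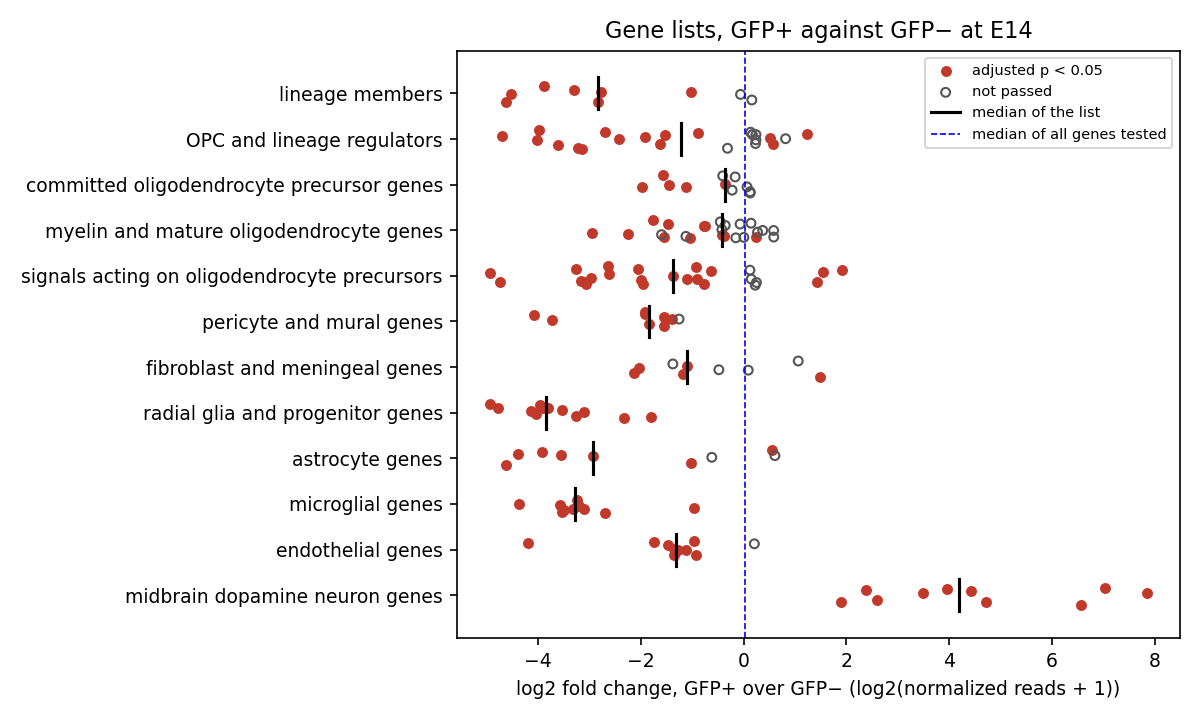
Log2 fold change of GFP+ against GFP− cells at E14 for each tested gene of the 9 genes and of the lists, 1 point per gene, filled where the gene passed the limma test at an adjusted p of 0.05, with the median of each list as a bar and that of all genes tested as a dashed line. The 9 genes have a median of -2.82, the precursor list -1.21, the committed list -0.35 and the myelin list -0.42, and all 10 dopamine neuron genes lie above 0.

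The plot of log2 fold changes by list places the 9 genes beside the others: their median of -2.82 lay below those of the precursor, committed, myelin, signal, pericyte, fibroblast and endothelial lists and above those of the radial glia, microglial and astrocyte lists, the last at -2.94. These medians are descriptions, without a test between lists.

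GFP+ library 2 was higher than both other GFP+ libraries for Olig1, Pdgfra, Cspg4, Gpr17, Cnp, Mbp and Mog, and not for Olig2 and Sox10. Its excess, the log2 difference from the mean of the other GFP+ libraries, was 1.14 for Gpr17, 0.97 for Mog and 0.79 for Mbp, with a median of 0.73 over the 9 genes against 0.01 over all genes tested. It was also the highest GFP+ library for 8 of 11 committed precursor genes (72.7%), 14 of 24 myelin genes (58.3%), 7 of 9 astrocyte genes (77.8%) and 6 of 10 microglial genes. In the precursor list it was the highest for 7 of 22 genes (31.8%), near the share of all genes, and among the signals for 6 of 25. It was the highest for 3 of 9 pericyte, 0 of 12 radial glia and 2 of 10 dopamine neuron genes. Gfap, an intermediate filament of astrocytes, had an excess of 1.36, and Aqp4, their water channel, one of 0.90. The median excess was 0.57 for the astrocyte, 0.45 for the microglial, 0.41 for the fibroblast, 0.38 for the endothelial, 0.31 for the committed precursor and 0.23 for the myelin list, and -0.18 for the radial glia list. It was 0.01 for the precursor list, as over all genes, 0.02 for the signals and -0.03 for the pericyte list. Whether RNA of other cells in this library bears on its Mbp and Mog values was not tested.

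**Figure D3:**
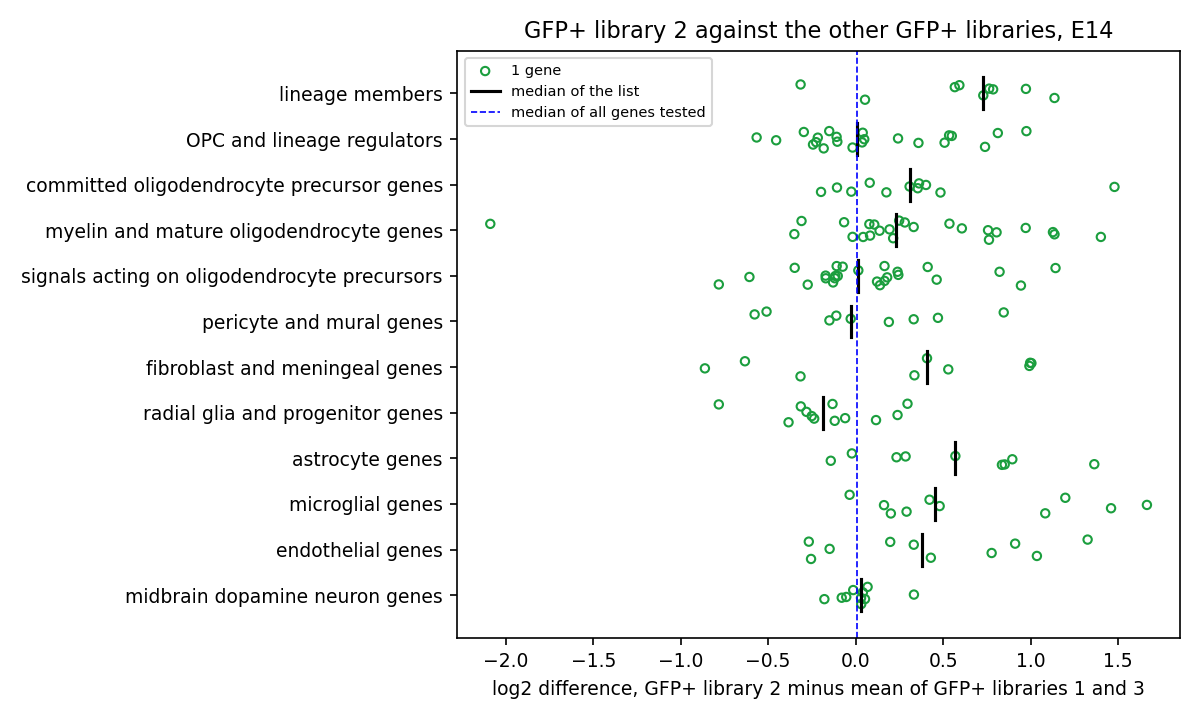
Log2 difference between GFP+ library 2 and the mean of the other GFP+ libraries at E14, 1 point per gene of the 9 genes and of the lists, with the median of each list as a bar and that of all genes tested as a dashed line. The 9 genes have a median of 0.73, above those of the astrocyte list (0.57), the microglial list (0.45), the myelin list (0.23) and the radial glia list (-0.18).

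The plot of that log2 difference by list shows the excess of the 9 genes next to those of the astrocyte and microglial lists, the precursor list at the median of all genes and the median of the radial glia list on the other side of 0.

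In the time series, where the lowest mean of any gene was 107 normalized reads, Mbp rose over the 3 ages in GFP+ cells and Cnp was highest at E16. Olig1, Olig2, Sox10, Pdgfra, Cspg4, Gpr17 and Mog were not analysed there. The values of Mbp again do not tell golli from myelin transcripts. Mbp read 326, 297 and 319 normalized reads at E14, 364, 420 and 420 at E16 and 545, 538 and 439 at P0. The libraries of each age lay above all those of the age before, as they did for 20.3% of all genes from E14 to E16, 22.8% from E16 to P0 and, over the whole span, 28.9%. The means were 314 ± 15.1, 401 ± 32.4 and 507 ± 59.4 (SD, n = 3 per age). From E14 to P0 the log2 fold change was 0.69 (SE 0.12, 95% interval 0.44 to 0.93, limma adjusted p = 0.000194), where 25.1% of the 10781 genes tested were higher at P0, 30.6% lower and 55.7% called in either direction. Mbp rose by 0.35 from E14 to E16 (SE 0.12, limma adjusted p = 0.0309; 15.2% of all genes were higher and 33% called) and by 0.33 from E16 to P0 (SE 0.12, limma adjusted p = 0.0400; 16.8% higher and 33.4% called). The change after E16 differed from the change before it by -0.02 (SE 0.20, 95% interval -0.45 to 0.41, limma adjusted p = 0.967), in a contrast that called 13.6% of all genes. The rise over the whole span was called in all 16 alternatives, at 0.63 to 0.79. The shorter steps were not. Without E14 library 1, 2 or 3, or E16 library 2 or 3, the adjusted p of the first step was 0.0514, 0.110, 0.0619, 0.0739 and 0.102. Without E14 library 1 or 2, E16 library 1 or 3, or P0 library 1 or 2, that of the second was 0.0516, 0.0537, 0.126, 0.0672, 0.129 and 0.142.

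Cnp read 177, 194 and 172 normalized reads at E14, 225, 252 and 240 at E16 and 147, 172 and 221 at P0. All 3 E16 libraries lay above those of both other ages (22% of all genes were lower without overlap from E16 to P0), and the P0 libraries spread across the E14 range. The means were 181 ± 11.4, 239 ± 13.5 and 180 ± 37.7 (SD, n = 3 per age). The step from E14 to E16 was 0.40 on the log2 scale (SE 0.15, limma adjusted p = 0.0621) and the step from E16 to P0 was -0.43 (SE 0.15, limma adjusted p = 0.0456; 16.6% of all genes were lower). From E14 to P0 the log2 fold change was -0.03 (SE 0.15, 95% interval -0.36 to 0.30, limma adjusted p = 0.881). The moderated F test of any change gave a limma adjusted p of 0.0442 for Cnp and 0.000667 for Mbp, with 59.7% of all genes called. The contrast of the 2 steps was -0.82 for Cnp (SE 0.27, limma adjusted p = 0.0549). The call from E16 to P0 held only without P0 library 3, at -0.58 (limma adjusted p = 0.0104), among the 9 fits that left out 1 library. Without E14 library 1, 2 or 3 its adjusted p was 0.0601, 0.0600 and 0.0515, without E16 library 1, 2 or 3 it was 0.0592, 0.0976 and 0.108, and without P0 library 1 or 2 it was 0.178 and 0.122. The F test likewise passed only without P0 library 3 in these 9 fits (adjusted p = 0.00939, and up to 0.121 in the others). In the authors' deposited table that step had an adjusted p of 0.0561, and the 3 Mbp comparisons had 0.0242, 0.0299 and 7.97e-07.

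P0 library 3 held the lowest Mbp and the highest Cnp of its age. It also held 3293 normalized reads of Fabp7, a lipid carrier abundant in radial glia, against 1438 and 1081 in P0 libraries 1 and 2. Of the other radial glia genes measured there, Vim, an intermediate filament protein, read 953, 908 and 882 in P0 libraries 1, 2 and 3. Nes, another, read 285, 213 and 228. Ptprz1, of the precursor list, read 3531, 3673 and 6136, with library 3 the highest as for Fabp7. P0 library 3 also departed in other lists. It was the highest P0 library for 6 of 10 dopamine neuron genes and 3 of 11 precursor genes, against 40.2% of all genes. Its median log2 difference from the mean of the other P0 libraries was -0.45 for the precursor list and 0.01 over all genes. Without P0 library 3 Mbp rose by 0.79 from E14 to P0 (limma adjusted p = 9.62e-05), and Cnp was at -0.19 (limma adjusted p = 0.305). Whether RNA of radial glia or of other cells, or another feature of this library, bears on these values was not tested.

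**Figure D4:**
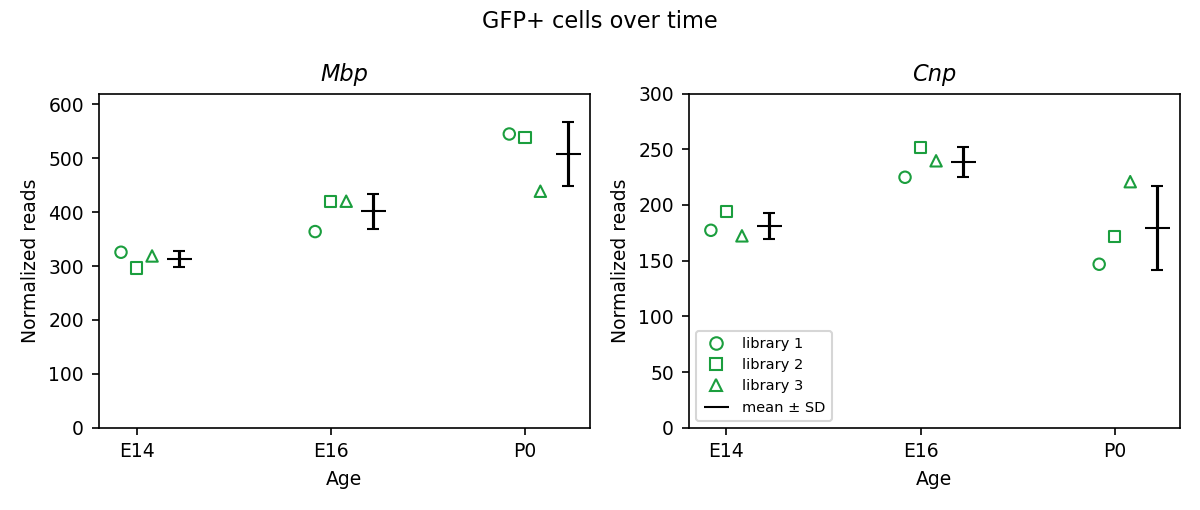
Normalized reads of Mbp and Cnp in each GFP+ library at E14, E16 and P0, with 3 libraries per age as symbols and the mean ± SD of each age beside them. Mbp lies at 297 to 326 at E14 and 439 to 545 at P0, and Cnp lies highest at E16, at 225 to 252.

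The plot of both genes by age shows the steps of Mbp without overlap and the wide spread of Cnp at P0. Within a library, the ratio of Mbp to Cnp normalized reads was 1.84, 1.53 and 1.85 at E14, 1.62, 1.67 and 1.75 at E16 and 3.71, 3.14 and 1.99 at P0. All P0 ratios lay above those of the earlier ages. In the sorted libraries the same ratio was 1.53, 1.64 and 1.56 in GFP− and 3.56, 3.91 and 3.29 in GFP+ cells, without overlap, and GFP+ library 2 was not set apart from its group in this ratio as it was in Mbp alone. The experiments differed at E14: the time series GFP+ ratios of 1.84, 1.53 and 1.85 lay below all sorted GFP+ ratios and near the GFP− ones. A high ratio was thus not shared by all E14 GFP+ libraries, and the reason was not tested. These ratios are a description, and no test of them was run.

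Of the other lineage genes, those of committed precursors and of myelin that were measured in the time series moved in both directions from E14 to P0, a span over which 25.1% of all genes were higher and 30.6% lower. Of 7 committed precursor genes 4 rose and 1 fell (median log2 fold change 0.46, against -0.05 over all genes): Sema5a rose by 1.64, Gpr37 by 1.39 and the matrix protein Tnr by 0.55 and Rras2, a small GTPase named after its value was seen, by 0.46, and Bcas1, a marker of newly formed oligodendrocytes, fell by 1.41 on the log2 scale. Of 7 myelin genes 3 rose: the tetraspanin Tspan2 by 1.70, Sept4 by 0.78 and Qdpr, which recycles tetrahydrobiopterin, by 0.61. The 1 that fell was Nfasc, at -0.20 (limma adjusted p = 0.0494), a call lost without E14 library 1 or 2, E16 library 3, or P0 library 2 or 3, where 0 fell. Of 11 precursor genes 2 rose and 7 fell (median -0.68): St18, a zinc finger factor, Vcan and Sox5, a relative of Sox6, fell by 2.01, by 1.23 and by 0.81, and Lhfpl3 and Ptprz1, a membrane protein and a receptor phosphatase of precursors, rose by 1.55 and 0.45. Ptprz1 was far higher in P0 library 3, at 6136 normalized reads, than in P0 libraries 1 and 2, at 3531 and 3673. Without E14 library 2, E14 library 3 or P0 library 3, 1 precursor gene rose. Without P0 library 3, 6 fell and the median was -0.36.

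Among 14 signals and receptors acting on precursors, 3 rose and 6 fell from E14 to P0 in GFP+ cells. Over all genes 25.1% were higher and 30.6% lower, so the share that rose is not above that of all genes. Pdgfa, whose product is the main ligand of Pdgfra, rose by 1.41 on the log2 scale, Igf1, a growth factor, by 1.65 and Fgfr2, a fibroblast growth factor receptor, by 1.56. Cxcr4, Id2, an inhibitor of helix-loop-helix factors, and Igf1r, the receptor of Igf1, fell by 2.55, by 1.18 and by 0.87. From E14 to E16 3 of these signals rose and 4 fell, where 15.2% of all genes were higher and 17.8% lower.

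The genes whose levels followed those of Mbp most closely over the 9 time series libraries were Hrk, Slc9a5 and Nav1 (Pearson r of 0.976, 0.973 and 0.973 on the log2 scale), and for Cnp they were Cat, Pgap2 and Eif5a (0.983, 0.964 and 0.956). None of these 6 is on the lists. Over the 6 sorted libraries the closest were Aldoc, Sfrp1 and Tal1 for Olig1 and Cast, Slc39a12 and Pbxip1 for Olig2, with r between 0.9995 and 0.9998, values that the gap between the 2 groups largely sets. For Cspg4 they were Irx3, Slc39a8 and F3, for Sox10 Tenm2, Kirrel and Bmp1, for Gpr17 Igfbp4, Clca3a1 and Lyl1, and for Cnp Tmem231, Mavs and 2010204K13Rik, with r from 0.996 to 0.9998. For Mbp they were Gm37108, Zfp108 and Gm7785 (0.980, 0.978 and 0.962) and for Mog Rpl10-ps3, Ndufs4 and Rpl30 (0.986, 0.979 and 0.960). Each gene named is among the 3 closest picked from all genes tested over 6 or 9 libraries, so a high r can come from that selection. Some had few reads: Gm37108, Gm7785, Rpl10-ps3, Lyl1 and Clca3a1 averaged 5.31, 10.7, 7.44, 5.04 and 7.37 normalized reads. These correlations are descriptions of libraries that share their groups.

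Circular RNAs (circRNAs) of the 9 genes did not appear in the circRNA tables. In that of the sorted experiment, which covers the GFP− libraries only, 0 of 3927 circRNAs carried the symbol of any of them. In that of the time series, 0 of 7528 did. The sorted GFP+ libraries were thus not searched.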

How the data were processed

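RNA of FACS-sorted Pitx3-GFP ventral midbrain cells was depleted of ribosomal RNA and made into libraries with ScriptSeq v2, per the labels' protocols. Per the submitters' processing notes, the tools were TopHat2, Trim Galore and DESeq2 and the build was GRCm38 (mm10). Versions are not given, and the read counter is not given in the sources used here. The authors deposited normalized reads, a signal value per gene, in a table for each experiment, together with log2 fold changes and p-values of their own comparisons, per the file headers. Dividing a library by its smallest step gave whole reads within 0.1 for at least 99.98% of values, which gave the depths. Time series libraries had no value below 38 reads and were not given a count model.

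The 9 genes were matched by symbol, and all had a mean of at least 5 normalized reads, the minimum for a test. The members and the gene lists were chosen with earlier results of these data known. limma-trend (limma 3.58.1, R 4.3.3) was fitted to log2(normalized reads + 1), two-sided, with Benjamini-Hochberg adjustment over all genes tested and a threshold of 0.05. The 6 sorted libraries had a fit of their own and the 9 time series libraries shared one, as the scalings of the tables differ. Fold changes on this scale understate those of low genes. From each list, up to 3 genes per direction were named, chosen by the size of the log2 fold change from genes that passed, averaged at least 50 and had groups without overlap. The genes most like Pdgfra are not reported here. The sorted columns carry a number, and columns of the same number deviated together from their group means (r = 0.64, 0.36 and 0.23 over 12588 genes). Columns of numbers 2 and 3 did so across numbers too. There r was 0.39 for GFP− library 3 with GFP+ library 2 and 0.18 for GFP− library 2 with GFP+ library 3. Pairs of library 1 with another number had r from -0.54 to -0.30. The values thus set library 1 apart and do not show a pairing of libraries 2 and 3 by number. A fit with the number as a block was run, and whether the number stands for a litter is not given. No 2 libraries agreed within counting noise. Exon lengths and positions come from GENCODE M21 (GRCm38), in which 10215 of the 10781 time series gene IDs appeared with the same version. Alternatives covered pseudocounts, filters, TMM and upper-quartile rescaling, the block, each library left out, and edgeR 4.0.16 and DESeq2 1.42.0 on the recovered sorted reads. The fit was also run on simulated counts with the same variability for every gene, few changed genes and no effect shared by replicates. That setting is simpler than these data, so it checks the code and not the error rates here.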

Additional observations from a re-analysis of the deposited data

How the results depend on the processing

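For the 9 genes, 293 alternative values were computed, of which 247 kept direction and call, 28 lost the call, 7 gained it and 11 changed sign. Olig1, Olig2, Sox10, Pdgfra, Cspg4, Gpr17 and Cnp were called lower in GFP+ cells under every alternative run, the replicate block included (Sox10 and Mog had no value under the minimum mean of 50). Signs changed where values lay near 0. In the sorted cells, with 1 library left out, Mbp ran from -0.10 (without GFP+ library 2) to 0.30 and Mog from -0.38 (without GFP+ library 2) to 0.21 (without GFP+ library 3). Mog was 0.026 with edgeR and 0.040 with DESeq2. From E14 to P0 Cnp was 0.014 with TMM rescaling, and ran from -0.19 (without P0 library 3) to 0.10 (without P0 library 1) with 1 library left out, above 0 also without E14 library 2. The difference between the steps of Mbp ran from -0.16 to 0.082 (without P0 library 3) with 1 library left out.

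Over all genes, the replicate block raised the sorted calls from 5599 to 8466 and the higher ones from 2313 to 4149. With 1 time series library left out, the contrast of the steps called 625 to 1801 genes (398 to 1012 higher and 227 to 789 lower), against 1468, with 625 without E16 library 3, 887 without P0 library 2 and 976 without E14 library 2. Genes lower from E16 to P0 numbered 1145 to 1861, with 1145 without E16 library 3. The cause was not tested. Same-numbered time series libraries did not deviate together (r from -0.11 to 0.24), and with their number as a block Mbp from E16 to P0 had a limma adjusted p of 0.0503. The block changed the call of no other of the 9 genes. Cnp from E14 to E16 passed with TMM (adjusted p = 0.0441), upper-quartile rescaling (0.0475), and without P0 library 1 (0.0420) or 3 (0.0327). Its contrast of steps passed with TMM (0.0487), upper-quartile rescaling (0.0470) and without P0 library 3 (0.0147). Mog and the GFP+ values of Sox10 rest on few reads, which limits their precision.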
